A study of Neurospora crassa with 19 samples.

Results

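The genes described here encode the complex that methylates histone H3 at lysine 9 in the filamentous fungus Neurospora crassa. They are dim-5 (NCU04402), dim-7 (NCU04152), dim-8 (NCU06605), dim-9 (NCU01656) and cul4 (NCU00272), joined by the importin gene dim-3 (NCU01249). They were chosen by locus for their known role and not for their values, though earlier results of these data were known. They are 6 of the 9730 genes counted. The series compared strains with and without dim-1 (NCU06484), a chromatin remodeler gene, and holds 19 samples from several assays. The values come from the poly-A RNA of 1 group, strain N5801, labelled as a complete deletion of dim-1, in 2 libraries. The cultures were shaken for 16 h at 32 °C in Vogel's minimal medium with 1.5% sucrose, and the labels call the material germinated conidia in one field and mycelia in another. The design names wild-type RNA of strain N3752 from a separate series, which is not analysed here. No statement that a gene rose or fell because of the dim-1 deletion is therefore made.

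In Neurospora, DIM-5 is the SET-domain enzyme that places the trimethyl mark on H3 lysine 9, and this mark directs DNA methylation to AT-rich DNA altered by repeat-induced point mutation. DIM-5 works together with DIM-7, which helps bring it to heterochromatin, and with a cullin-type ubiquitin ligase made of the scaffold CUL4, the DDB1 homologue DIM-8 and the WD-repeat protein DIM-9. DIM-3 is an importin alpha, an adaptor that carries proteins into the nucleus, and it is needed for normal DNA methylation. HP1 binds the mark and brings the DNA methyltransferase DIM-2.

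The genes of replicate 1 summed to 17364963 counts and those of replicate 2 to 13632746, and a count of 0 (3 counts as its limit) allows up to 0.173 CPM (counts-per-million of the library's gene counts) in replicate 1 and 0.220 in replicate 2. Nothing in the labels says that the libraries came from separate cultures, so SDs measure only the spread between these samples, which may be technical. P-values of the exact binomial test used below allow for counting error alone and not for that spread. The targeted gene, dim-1, had 258 counts in replicate 1 and 171 in replicate 2, or 14.9 and 12.5 CPM, far above these limits. These reads go against the label of a complete deletion, so the libraries are called labelled dim-1 deletion and no direction is drawn from the genotype. A count over the whole gene cannot tell where in dim-1 those reads lie. The span of dim-1 is 7732 bases. Per kilobase of span its level was 1.92 CPM in replicate 1 and 1.62 in replicate 2, below each of the 6 genes described here. The summed level of 6 conidial genes was 365 CPM in replicate 1 and 237 in replicate 2, but its members went both ways. Lowest of them was acon-3, with 21 and 11 counts in replicates 1 and 2. By the tests given below con-8 and con-10 were called, both higher in replicate 1, where 6.15% of all genes were called in either direction. The exact binomial test also passed csp-2, higher in replicate 1, and eas, higher in replicate 2 (53.6 and 76.0 CPM in replicates 1 and 2), both under 2-fold. Of these, con-10 alone passed edgeR's exact test. The 3 genes of growing hyphae, cot-1, gna-1 and chs-1, were all detected and also went both ways, with cot-1 at 183 and 274 CPM in replicates 1 and 2, gna-1 at 199 and 167, and chs-1 at 309 and 290. Of 4 genes of sexual tissue, fsd-1 had 26.8 and 20.2 CPM in replicates 1 and 2, and mfa-1 had 13.4 and 9.39. The gene sad-1 had 3 and 2 counts, and fmf-1 had 0 counts in both libraries. The summed level of the 4 was 40.4 and 29.8 CPM. Both fsd-1 and mfa-1 passed the exact binomial test, higher in replicate 1 and under 2-fold, where 28.2% of all genes were higher there. Neither passed edgeR's exact test. The part of these differences in the values below was not tested.

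All 6 genes were detected, that is, each had at least 10 counts in both libraries. The methyltransferase gene dim-5 had the fewest reads, with 127 counts in replicate 1 and 59 in replicate 2. This was 7.31 CPM in replicate 1 (exact Poisson 95% interval 6.10 to 8.70) and 4.33 CPM in replicate 2 (3.29 to 5.58). The intervals did not overlap, and replicate 1 was the higher library. These intervals cover counting error only, since no molecular identifiers are named in the labels. The mean was 5.82 ± 2.11 CPM (SD, n = 2), with a coefficient of variation of 36.3%.

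The partner gene dim-7 had 312 counts in replicate 1 and 236 in replicate 2. Its level was 18.0 CPM (16.0 to 20.1) in replicate 1 and 17.3 CPM (15.2 to 19.7) in replicate 2, so the libraries lay within each other's counting intervals. The mean was 17.6 ± 0.464 CPM (SD, n = 2). In the RefSeq gene table of assembly NC12 the span of dim-7 overlaps that of its neighbour NCU04151 by 690 bases, or 18.7% of dim-7. The strand setting of the counting is not given in the sources used here, so reads in that stretch cannot be assigned with certainty.

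The genes of the ubiquitin ligase stood above dim-5 and dim-7 in reads. The WD-repeat gene dim-9 had 506 and 407 counts in replicates 1 and 2, or 29.1 CPM (26.7 to 31.8) and 29.9 CPM (27.02 to 32.9). The DDB1 gene dim-8 had 999 and 702 counts, or 57.5 CPM (54.0 to 61.2) in replicate 1 and 51.5 CPM (47.8 to 55.4) in replicate 2. For dim-8 the intervals of the libraries overlapped in part, with replicate 1 higher. The cullin gene cul4, listed as cul-4 in the gene table, had 1108 and 846 counts, or 63.8 CPM (60.1 to 67.7) and 62.1 CPM (57.9 to 66.4). The coefficient of variation was 1.72% for dim-9, 7.83% for dim-8 and 1.97% for cul4.

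The importin gene dim-3 was by far the most abundant. It had 4353 counts in replicate 1, or 251 CPM (243 to 258), and 3229 in replicate 2, or 237 CPM (229 to 245). It stood at percentile 91.2 of the 7775 detected genes in replicate 1 and 90.6 in replicate 2. By contrast dim-5 stood at percentile 16.8 and 12.4, and dim-7 at 33.6 and 34.6. The ligase genes lay between these, with dim-9 at 45.5 and 47.8, dim-8 at 64.3 and 62.2 and cul4 at 66.9 and 67.0. These percentiles rank CPM without regard to gene length. Ranked by CPM per kilobase of gene span, dim-5 stood at 21.0 and 15.2 and dim-7 at 23.2 and 25.9. On that scale dim-9 stood at 31.5 and 35.3, dim-8 at 52.5 and 50.7, cul4 at 58.6 and 58.7 and dim-3 at 89.0 and 88.2.

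**Figure D1:**
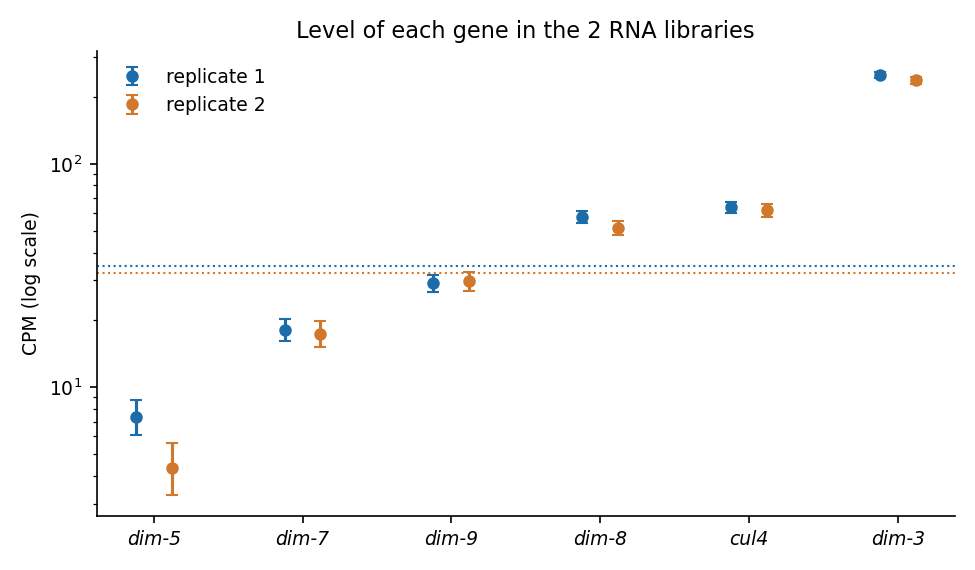
Level of each of the 6 genes in CPM on a log axis, by library, with exact Poisson 95% intervals. Dotted lines mark the median detected gene of each library (34.8 CPM in replicate 1 and 32.4 in replicate 2), with dim-5, dim-7 and dim-9 below both lines and dim-8, cul4 and dim-3 above both.

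Levels can be set against each other across genes only per length, and the length used here is the gene span, introns included. Per kilobase of span the order, low to high, was dim-5, dim-7, dim-9, dim-8, cul4 and dim-3. The level of dim-5 was 4.34 CPM per kilobase in replicate 1 and 2.57 in replicate 2, and that of dim-7 was 4.87 and 4.69. These neighbours did not differ beyond counting error in replicate 1, where dim-7 was 1.12-fold over dim-5 (95% interval 0.909 to 1.39). In replicate 2 the ratio was 1.83-fold (1.37 to 2.47). The ranges over the libraries were apart, and dim-5 was the lower gene in both, beyond counting error in replicate 2 alone.

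Further up, dim-9 had 6.91 CPM per kilobase of span in replicate 1 and 7.07 in replicate 2. It was 1.42-fold and 1.51-fold over dim-7 in the same libraries. The next gene, dim-8, had 14.3 and 12.8 CPM per kilobase and was 2.07-fold and 1.81-fold over dim-9. The cullin gene cul4 had 17.7 and 17.3, which was 1.24-fold and 1.35-fold over dim-8. For each of these pairs the ranges of the libraries were apart and the counting intervals did not overlap in either library. The intervals leave out 1 doubt, that 18.7% of the span of dim-7 overlaps NCU04151. How reads in that stretch were counted was not tested. The steps from dim-5 to dim-7 and from dim-7 to dim-9 are therefore less certain than the intervals show.

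The widest step was between cul4 and dim-3, which had 81.7 CPM per kilobase in replicate 1 and 77.2 in replicate 2, or 4.61-fold and 4.48-fold over cul4. Against dim-5, dim-3 was 18.8-fold higher per kilobase in replicate 1 (15.8 to 22.6) and 30.1-fold in replicate 2 (23.2 to 39.6). For cul4 the same ratios were 4.09-fold (3.40 to 4.95) and 6.72-fold (5.16 to 8.90), and for dim-8 they were 3.29-fold (2.73 to 3.99) and 4.98-fold (3.81 to 6.61). Of the 5 genes of the complex, dim-8 and cul4 had a mean above that of the median detected gene, 13.0 CPM per kilobase. The mean of dim-8, 13.5 ± 1.06 (SD, n = 2), was within its SD of that median.

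The share of each gene in the summed RNA level of the 5 genes does not depend on how the libraries are scaled. Of the summed level per kilobase of the 5 genes, cul4 made up 36.8% in replicate 1 and 38.9% in replicate 2, and dim-8 made up 29.7% and 28.8%. The WD-repeat gene dim-9 held 14.3% and 15.9%, and dim-7 held 10.1% and 10.6%. The methyltransferase gene dim-5 held 9.02% and 5.79%, a mean of 7.40 ± 2.28% (SD, n = 2). Ligase genes thus accounted for most of the summed level of the 5 genes per kilobase in both libraries. They are also most of the 5 genes, so even shares would give them most of it too. Without division by length dim-5 held 3.39%. Its span of 1685 bases is the shortest of the 5. With dim-3 added to the sum, dim-3 alone made up 62.9% and 63.5%.

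**Figure D2:**
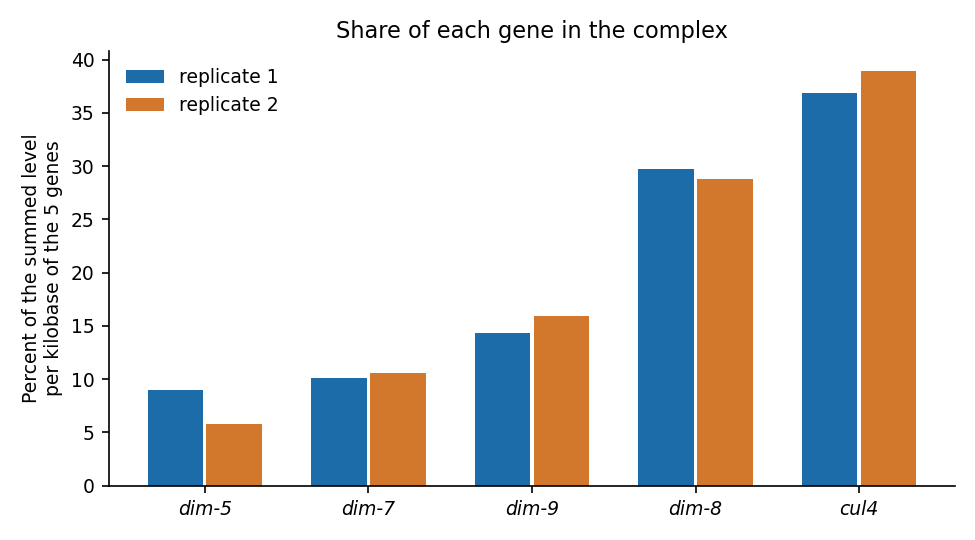
Share of each gene in the summed CPM per kilobase of gene span of the 5 genes of the DIM-5 complex, in percent, as bars from 0 for each library. The bars of cul4 (36.8% and 38.9%) are the tallest and those of dim-5 (9.02% and 5.79%) the shortest in both libraries.

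The libraries were then compared gene by gene, to show how much each member varied between replicates of the same strain. For each gene the reads of replicate 2 were set against that library's share after TMM scaling, a correction for differences in composition, with an exact two-sided binomial test. The test was run over 7898 genes with Benjamini-Hochberg adjustment over all of them. It compares these 2 libraries and not conditions. Calls needed both an adjusted p under 0.05 and a difference of at least 2-fold.

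Of the 6 genes, 0 were called, where 6.15% of all genes tested were. Without the 2-fold minimum 1 member passed, dim-5, before and after adjustment, where 57.3% of all genes did. The level of dim-5 in replicate 2 was 0.617 times that in replicate 1, a log2 ratio of −0.70 (95% interval −1.17 to −0.24) with an adjusted p of 0.00393 by the exact binomial test. With edgeR's exact test, which adds the spread estimated from the same 2 libraries (a coefficient of variation of 23.9% beyond counting error), the adjusted p of dim-5 was 1.0 and its unadjusted p 0.201. By that test 0 of the 6 genes had an unadjusted p under 0.05, and 0.646% of all genes passed after adjustment. Its spread comes from the very libraries compared, so few genes could pass. Failing it shows little, here and in the lists below. Among the 1372 other genes with a mean level within 2-fold of dim-5, 20.6% differed between the libraries by at least as much.

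The other 5 genes differed little. Their log2 ratios of replicate 2 over replicate 1 ran from −0.10 for dim-8 (95% interval −0.25 to 0.037) to 0.091 for dim-9 (−0.10 to 0.28). The ratio was 0.0025 for dim-7 (−0.25 to 0.25), 0.016 for cul4 (−0.11 to 0.15) and −0.026 for dim-3 (−0.092 to 0.040). Their adjusted p by the exact binomial test ran from 0.214 to 1.0. The median absolute log2 ratio of all genes tested was 0.29. Among genes with a mean level within 2-fold of each, between 76.1% (dim-8) and 99.3% (dim-7) differed by at least as much. Scaling by total counts turned the sign for dim-7 (−0.054) and cul4 (−0.040), so no direction is given for these genes. It also brought the adjusted p of dim-8 to 0.0435 and that of dim-3 to 0.0272, at log2 ratios of −0.16 and −0.082.

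**Figure D3:**
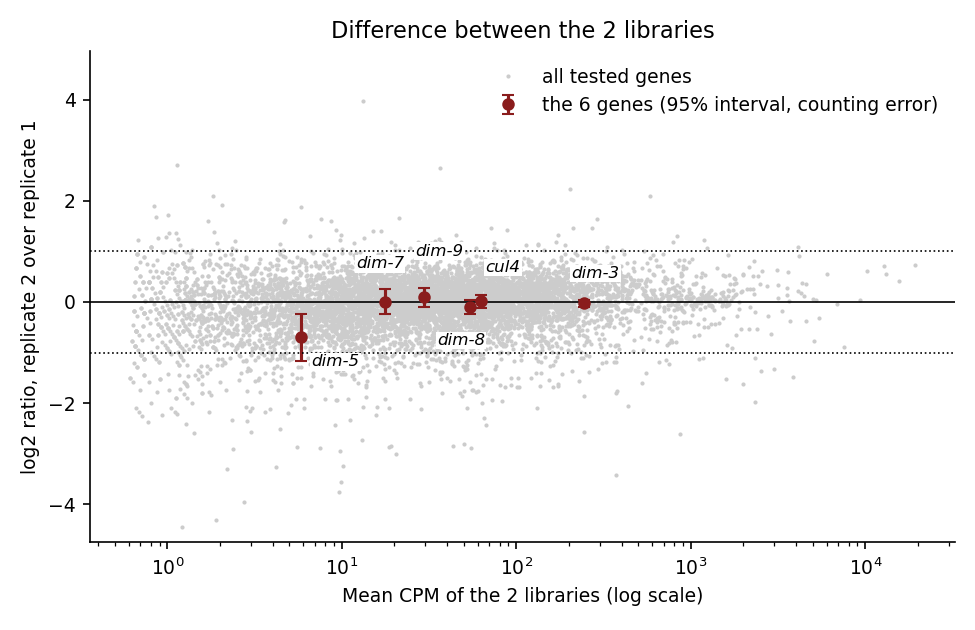
Log2 ratio of replicate 2 over replicate 1 (TMM scaling) against mean CPM on a log axis, for all tested genes (grey points) and the 6 genes (dark points with 95% counting intervals). Dotted lines mark 2-fold. The interval of dim-5 (−1.17 to −0.24) excludes 0, and the intervals of the other 5 include it.

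Among genes with a symbol in the gene table, the one nearest to each member in level over the 2 libraries was found by the distance in log2(CPM + 0.5). Such likeness over 2 libraries describes level and little else. For dim-5 it was the kinase gene stk-44 (NCU06583), with 126 and 62 counts and a distance of 0.0652. For dim-7 it was mip-1 (NCU00276; distance 0.0256), for dim-8 ada-3 (NCU02896; 0.0192) and for dim-9 set-8 (NCU01973; 0.00659). For cul4 it was preg (NCU01738; 0.0492), and for dim-3 it was arg-4 (NCU10468; 0.0587).

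The genes of HP1, which binds the H3 lysine 9 mark, and of its deacetylase complex were all above dim-5 per kilobase. So were most detected genes, since dim-5 stood at percentile 21.0 and 15.2 of them per kilobase in replicates 1 and 2. The 4 genes of HP1 and its histone deacetylase complex had a median of 11.8 CPM per kilobase, against 6.99 for the 5 genes of the DIM-5 complex. They ran from cdp-2 (NCU00738) at 8.64 ± 0.782 to the HP1 gene hpo (NCU04017) at 20.8 ± 2.14 (SD, n = 2), and all 4 exceeded dim-5. Between libraries 3 of the 4 passed the exact binomial test at an adjusted p under 0.05, all higher in replicate 2, where 29.1% of all genes tested were. With total counts this was 2 of 4, where 24.9% of all genes were, and with edgeR's exact test 0 of 4 passed, before or after adjustment.

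The 3 genes of DNA methylation and its spreading had a median of 4.96 CPM per kilobase. The DNA methyltransferase gene dim-2 (NCU02247) was highest at 5.49 ± 0.037, between dim-7 and dim-9. The gene rid (NCU02034), which is needed for repeat-induced point mutation, was lowest at 0.723 ± 0.137. For dim-2 the libraries held 540 and 428 counts, and 0 of the 3 genes passed the exact binomial test after adjustment or at an unadjusted p under 0.05, nor did any by edgeR's exact test. The one gene whose symbol begins as an importin or nuclear pore gene, nup-9 (NCU16337), had 11.7 ± 0.334 CPM per kilobase, against 79.5 ± 3.19 for dim-3 (SD, n = 2).

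Genes for other methylation of histone H3 were set beside dim-5, though that list mixes methyltransferase genes with genes of other subunits, such as eed. The 7 genes had a median of 2.63 CPM per kilobase, and 3 of them exceeded dim-5, where most detected genes did. The gene set-7 (NCU07496), the methyltransferase of Polycomb repressive complex 2, had 2.35 ± 0.115, with 284 and 208 counts. The gene set-2 (NCU00269), for H3 lysine 36, had 2.63 ± 0.229, and set-1 (NCU01206), for H3 lysine 4, had 5.57 ± 0.851. Highest of the methyltransferase genes on the list was ash-1 (NCU01932), at 8.23 ± 0.490. In replicate 1 the level of dim-5, 4.34, was above set-2 at 2.80 and set-7 at 2.43. In replicate 2 it was 2.57, against 2.47 for set-2 and 2.26 for set-7, and there the counting intervals overlapped. The list ran from eed (NCU05300), of the Polycomb complex, at 0.769 ± 0.150 to npf (NCU06679) at 24.5 ± 1.00 (SD, n = 2). Between libraries 1 gene was higher in replicate 1 (set-1) and 1 in replicate 2 (suz12, NCU05460) at an adjusted p under 0.05 by the exact binomial test, where 28.2% and 29.1% of all genes were. With total counts suz12 no longer passed, and by edgeR's exact test 0 of the 7 did, before or after adjustment.

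The cullin cul-1 and the COP9 signalosome, which removes the ubiquitin-like protein NEDD8 from cullins, stood higher than most of the complex. The 8 genes had a median of 22.8 CPM per kilobase, and all 8 exceeded the median detected gene. The lowest was csn-3 (NCU01408) at 15.8 ± 0.241, near cul4 at 17.5 ± 0.344, and the highest was cul-1 (NCU05204) at 39.4 ± 1.52 (SD, n = 2). By the exact binomial test 5 of the 8 were higher in replicate 2 at an adjusted p under 0.05, where 29.1% of all genes were, with a median log2 ratio of 0.17. With total counts 0 of the 8 passed, before or after adjustment, where 24.9% of all genes were higher in replicate 2, and the median was 0.11. With edgeR's exact test 0 passed, before or after adjustment.

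**Figure D4:**
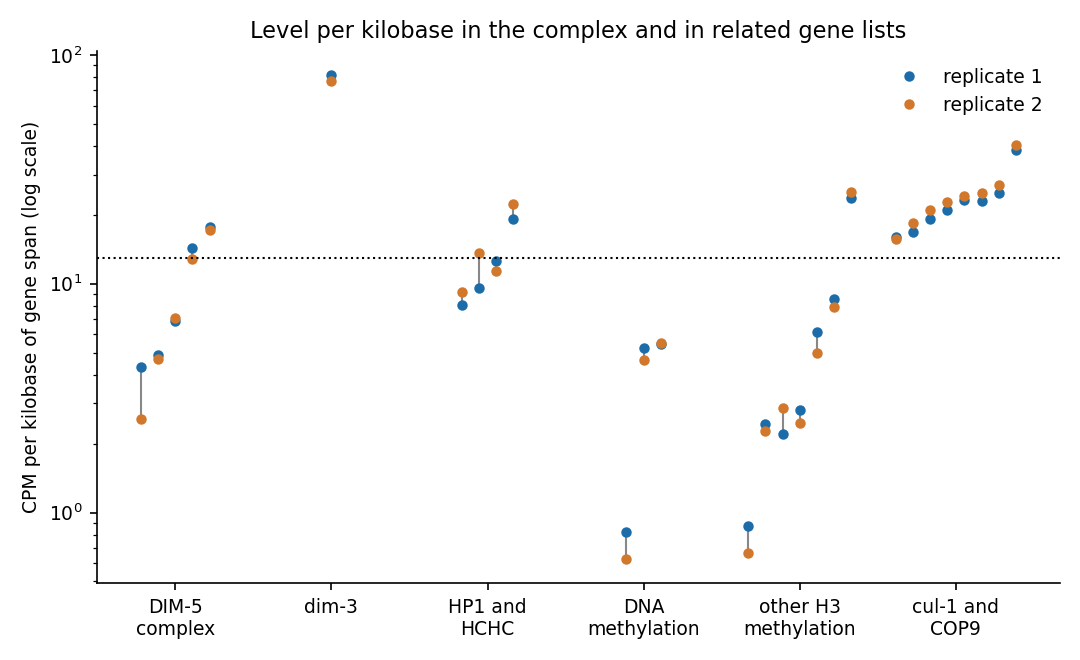
CPM per kilobase of gene span on a log axis, with a point per library joined by a line for each gene, for the 5 genes of the DIM-5 complex, dim-3 and 4 related lists. The dotted line is the median detected gene (13.0). All 8 genes for cul-1 and COP9 lie above it, and of the 5 genes of the complex only cul4 lies above it in both libraries.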

How the data were processed

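The deposited values are raw counts of reads per gene in 2 poly-A RNA libraries, made with a stranded mRNA kit per the labels' protocols; the remaining 17 samples are not analysed here. The submitters' processing notes name TopHat, HTSeq and DESeq without roles, and no build, annotation or strand setting is stated for the counting. HTSeq's 5 rows for reads without a gene were left out; they held 6.72% (replicate 1) and 6.64% (replicate 2) of reads outside genes and 0.0728% and 0.0771% ambiguous reads. The libraries differed beyond sampling noise and were counted as 2 samples.

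The 6 genes and all lists were chosen with earlier results of these data known. Symbols and spans came from a RefSeq table of assembly NC12, which held 9729 of the 9730 loci. Gene span replaced the intended coding length, the intended protein comparison was not made, and no coordinates are given. No quasi-likelihood test can be fitted to 2 libraries of 1 group. The exact binomial test took genes with 20 or more counts summed over both libraries and added 0.5 counts in log2 ratios. It was tried on simulated counts that held counting error alone, so that trial says nothing on spread between libraries. Named genes are the members, dim-1, the gene on each side of each member and the named gene nearest in level. The highest and lowest of each list are named too. Named after their values were seen were con-8, con-10, csp-2, eas, dim-2, set-1, set-2, set-7, ash-1, suz12 and the hyphal and sexual markers. Alternatives were DESeq2 size factors, total counts, no minimum on counts, edgeR's exact test, other CPM totals, no division by length, and each library alone. Tools were R 4.3.3, edgeR 4.0.16, DESeq2 1.42.0, Python 3.11.15 and scipy 1.17.1.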

Additional observations from a re-analysis of the deposited data

How the results depend on the processing

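Direction and side of the threshold held for dim-5 under DESeq2 size factors, total counts and no minimum on counts. With edgeR's exact test dim-5 had a log2 ratio of −0.70 and no longer passed, the members passing were 0 against 1 by the exact binomial test, and the genes called fell to 51 of 7898, against 486; that test adds a spread between libraries. With total counts 3 members passed: dim-5, dim-8 (−0.16) and dim-3 (−0.082). Leaving the 10 highest genes out of the total, which makes the total smaller, raised the level per kilobase to 5.34 for dim-7, 15.1 for dim-8, 7.82 for dim-9, 19.6 for cul4 and 88.9 for dim-3. It also raised dim-5 from 3.45 to 3.85, which stayed within its wide SD of 1.25. Without division by length the shares of the 6 genes were 1.40% for dim-5, 4.26% for dim-7, 13.2% for dim-8, 7.13% for dim-9, 15.2% for cul4 and 58.9% for dim-3, and those of the 5 genes 3.39% for dim-5, 32.0% for dim-8 and 17.3% for dim-9. Of 93 alternatives 73 were taken as unchanged. For levels and shares this meant within the spread between the libraries, and for log2 ratios on the same side of the threshold. For counts of genes it meant equal to the main count or within 1.5 times of it. That tally includes each library alone, which always lies within the SD of the pair and could not fall outside it. Each library alone gave 2.57 to 4.34 CPM per kilobase for dim-5, over 1.5 times apart. Coding length as the divisor was not run. Of the 6 genes dim-5 had the fewest counts, 59 in replicate 2, and its counting intervals did not overlap between the libraries. No paired analysis was possible because the RNA libraries form a single group.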

Other observations

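The genes beside the members in the gene table ranged widely in level. Both neighbours of dim-5 were almost without reads: NCU16819 had 2 counts in replicate 1 and 0 in replicate 2, and NCU10110 had 5 and 1. The gene before cul4, NCU00271, had 1 and 0 counts, while the gene after it, NCU00273, had 88.2 ± 0.507 CPM (SD, n = 2). Beside dim-8, NCU06604 had 8 and 21 counts and fes-1 (NCU06606) had 174 and 308 CPM in replicates 1 and 2. NCU06604 was called by the exact binomial test (log2 ratio 1.73, adjusted p = 0.00450), whereas fes-1, at 0.88, was below 2-fold. The neighbour that overlaps dim-7, NCU04151, had 281 and 272 counts and a log2 ratio of 0.36 (adjusted p = 0.00817 by the same test), against 0.0025 for dim-7. The gene after dim-7, NCU04153, had 20.2 ± 1.43 CPM. Beside dim-9, NCU01657 had 47.2 ± 16.9 CPM and NCU01655 38.7 ± 4.96, and beside dim-3, NCU01248 had 7.24 ± 0.274 and NCU01250 41.4 ± 4.26 (SD, n = 2).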
